A study of Mus musculus with 12 samples.

Results

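Wild type mouse embryonic fibroblasts (MEFs, connective-tissue cells cultured from embryos, here of strain background C57BL/6 and labelled XBP1WT) that received 2 ug/mL tunicamycin for 12 h were compared with untreated wild type MEFs. Each group had 2 arrays, replicates 1 and 2, which the design text calls independent experiments, so that 4 of the 12 arrays of the series were compared here. The arrays compared were picked by their titles. The other arrays held XBP1WT cells at 24 h and XBP1KO cells under the same treatments, and they shared the scaling, the choice of tested miRNAs and the fit's estimate of the spread. Their own values are given only where they are set beside the 12 h comparison. XBP1KO cells are deficient in XBP1. The sources used here do not give the allele or say how many embryos the cells came from, and the array does not read Xbp1 mRNA, so the genotype labels were not checked. MicroRNA (miRNA) levels were read on 1-colour Agilent arrays with Cy3-labelled total RNA, and a value is a signal in arbitrary units, not a number of molecules. Fewer cells of a type and less RNA per cell cannot be told apart in such bulk samples.

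Tunicamycin stops the attachment of N-linked sugars to new proteins. Glycoproteins then stay unfolded in the endoplasmic reticulum, which switches on the unfolded protein response. Its sensors are IRE1, which splices the mRNA of the transcription factor XBP1 and cleaves other RNAs, PERK, which slows translation and induces ATF4 and CHOP, and ATF6, which is released to act as a transcription factor. A miRNA is a short RNA cut from a hairpin. It represses mRNAs that pair with its seed (bases 2 to 8), and often only 1 arm of the hairpin is kept at a high level while the other, marked here by a star as in the array's naming, is scarce.

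Sequences are printed for the miRNAs on which the results turn, as mature RNAs in RefSeq's table for GRCm38.p6, 5′ to 3′ with the seed in capitals. The first set was higher after 12 h of tunicamycin and is shown for its base content and, for miR-211 and miR-204, for a shared seed.
miR-207: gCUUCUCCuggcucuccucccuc
miR-877*: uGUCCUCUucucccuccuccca
miR-1894-5p: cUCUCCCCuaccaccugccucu
miR-574-3p: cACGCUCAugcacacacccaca
miR-485*: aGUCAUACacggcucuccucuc
miR-346: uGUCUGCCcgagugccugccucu
miR-483*: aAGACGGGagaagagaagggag
miR-211: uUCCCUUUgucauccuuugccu
miR-204: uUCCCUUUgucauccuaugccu
The second set was lower after 12 h, and miR-146b and miR-146a share their seed.
miR-146b: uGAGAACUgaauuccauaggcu
miR-146a: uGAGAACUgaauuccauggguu
miR-361: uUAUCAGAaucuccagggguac
miR-152: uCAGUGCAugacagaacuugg
miR-362-5p: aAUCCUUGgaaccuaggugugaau
miR-101a: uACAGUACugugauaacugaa
miR-322: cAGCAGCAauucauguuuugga
miR-26a: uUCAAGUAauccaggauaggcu
In that build the matched hairpin entries of miR-877* and miR-1894-5p lie on chromosome 17, those of miR-211 and miR-483* on chromosome 7, and those of miR-361, miR-362-5p and miR-322 on chromosome X. Coordinates are left out, as no build is named in the array files.

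The arrays of both groups differed in more than treatment. Total unscaled mouse miRNA signal was 32310 and 67424 at 12 h and 94809 and 108000 in untreated cells, and 174 and 194 of 611 mouse miRNAs were detected at 12 h, against 193 and 199. The labelling spike-in dmr_285, an RNA added at the labelling step, read 30.2 and 17.0 units unscaled at 12 h and 151 and 70.5 in untreated cells, while the hybridisation spike-in dmr_3, added after labelling, read 1068 and 549 at 12 h and 996 and 720 in untreated cells. Both 12 h arrays were on slide 2 and both untreated arrays on slide 1, and the effects of slide and of treatment cannot be told apart. The part of these gaps in the results below was not tested. Every value below is a scaled signal unless stated otherwise, made by equalising the arrays' upper quartile over 95 miRNAs detected on all 12 arrays, with values under a floor of 13.1 (3.71 on the log2 scale) set to it before log2 was taken.

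After 12 h of tunicamycin 130 of 256 tested miRNAs passed the threshold of an adjusted p under 0.05 in limma's moderated test (50.8%), and 140 had an unadjusted p under 0.05. There were 65 higher and 65 lower (25.4% each). The split moved with the processing, to 55 higher and 105 lower with quantile normalization and to 61 higher and 50 lower with the scanner software's total gene signal, which the authors' deposited table holds. Normexp background correction was run on the spots' median signal and added an offset of 50 to each spot before scaling. It thus changed the input and the offset as well as the background method, and gave 181 higher and 11 lower. The effects of these changes were not separated. The rises were larger than the falls. The higher miRNAs had a median log2 difference of 3.59 (0.41 to 7.42), and 28 of them exceeded 4. The lower miRNAs had a median of -1.03 (-2.68 to -0.17), and 5 fell by over 2 on that scale. The median of all 256 was -0.09, and over the 151 miRNAs that exceeded the floor on each of the 4 arrays it was -0.42. Among those 151, 19 were higher (12.6%) and 49 lower (32.5%). When each of the 4 arrays was left out in turn, 48 of the 65 higher and 36 of the 65 lower miRNAs were called in all 4 fits, and the total was lowest, at 85, without untreated replicate 2.

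**Figure D1:**
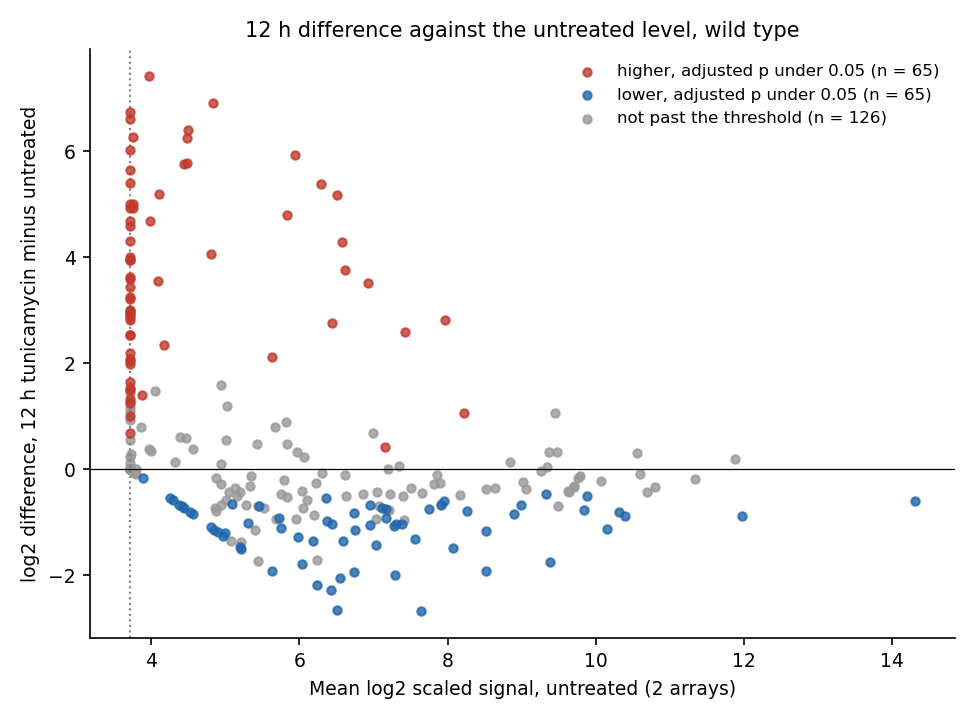
Each point is 1 of 256 tested miRNAs, with its mean log2 scaled signal on the 2 untreated arrays on the horizontal axis and the log2 difference, 12 h tunicamycin minus untreated, on the vertical axis; the dotted line is the floor. The higher miRNAs (65) lie mainly at or near the floor in untreated cells, 36 of them on it on both arrays, and the lower ones (65) spread over the whole range of levels.

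The higher miRNAs were mostly scarce in untreated cells. Of the 65, 36 were detected on neither untreated array and 20 on all 4 arrays. In unscaled signal, 55 of the 65 were still above the untreated arrays on both 12 h arrays, although those arrays were dimmer in total. Another 9 overlapped, and 1 was below the untreated arrays on both 12 h arrays. Of the 192 probes of the 65 higher miRNAs 183 were above on both 12 h arrays after scaling. Of the 140 probes of the 65 lower miRNAs 137 were below on both 12 h arrays after scaling. Their unscaled order carries no further information, since the 12 h arrays were the dimmer ones and were scaled up the more. The calls were made on the sums of these same probes, so both probe counts are no separate test. The groups did not overlap for 87 of the 256 miRNAs with tunicamycin above (34%) and for 119 with tunicamycin below (46.5%).

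The makeup of the signal shifted. The 65 higher miRNAs took 43.8% and 50.3% of the tested signal on the 12 h arrays, against 3.51% and 2.40% on the untreated arrays. They were chosen by this same comparison, so the shares describe its size and are no separate test. The 65 lower miRNAs took 24.5% and 21.3% at 12 h and 53.6% and 53.4% in untreated cells. Of the 20 brightest miRNAs at 12 h, 12 were higher and 2 lower, and 7 were also among the 20 brightest of untreated cells. None of those brightest 20 in untreated cells was higher. Over all tested miRNAs 25.4% were called in each direction. Both rankings used values that entered the calls, so these counts are a description as well.

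miR-207 had the largest rise. It read 2440 and 2970 at 12 h and 18.8 and 10.2 in untreated cells, where neither array detected it. The rise was at least 172-fold, with a fitted log2 difference of 7.42 (SE 1.48) and a limma adjusted p = 0.00561. It ranked 7th by mean signal at 12 h.
miR-877*, an arm of a mirtron (a hairpin that is itself a spliced intron) of the gene Abcf1, read 3723 and 3123 at 12 h and 50.7 and 15.9 in untreated cells (6.91, SE 1.23, adjusted p = 0.00349). Both 12 h arrays were far above both untreated ones, and on the log2 scale the untreated arrays differed from each other more than the 12 h arrays did. miR-574-3p, from an intron of Fam114a1, read 3639 and 3864 at 12 h and 102 and 37.1 in untreated cells. Its log2 difference of 5.93 (SE 1.82, adjusted p = 0.0308) was past the threshold in none of the 4 fits that left out 1 array (limma adjusted p 0.0738 to 0.145), although the groups did not overlap.

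Others were bright at 12 h and undetected in untreated cells. miR-1196 read 1253 and 1594 at 12 h against 9.20 and 3.96 in untreated cells, at least 108-fold higher. miR-197 read 1101 and 1508 at 12 h against 4.84 and 6.28, at least 98.4-fold higher. miR-1894-5p read 679 and 1064 at 12 h against -0.254 and -0.209, at least 64.9-fold higher. These 3 were detected on both 12 h arrays and on neither untreated array. miR-485*, an arm of a hairpin in the imprinted Dlk1-Dio3 region, read 492 and 868 at 12 h against 0.341 and 2.44, at least 49.9-fold higher. For each miRNA of this paragraph the second 12 h array was the brighter after scaling, and the groups did not overlap. The log2 difference within replicate 2 was larger than that within replicate 1 for all 65 higher miRNAs (medians 4.12 and 3.06). Among the 65 lower ones it was larger in size for 36.

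**Figure D2:**
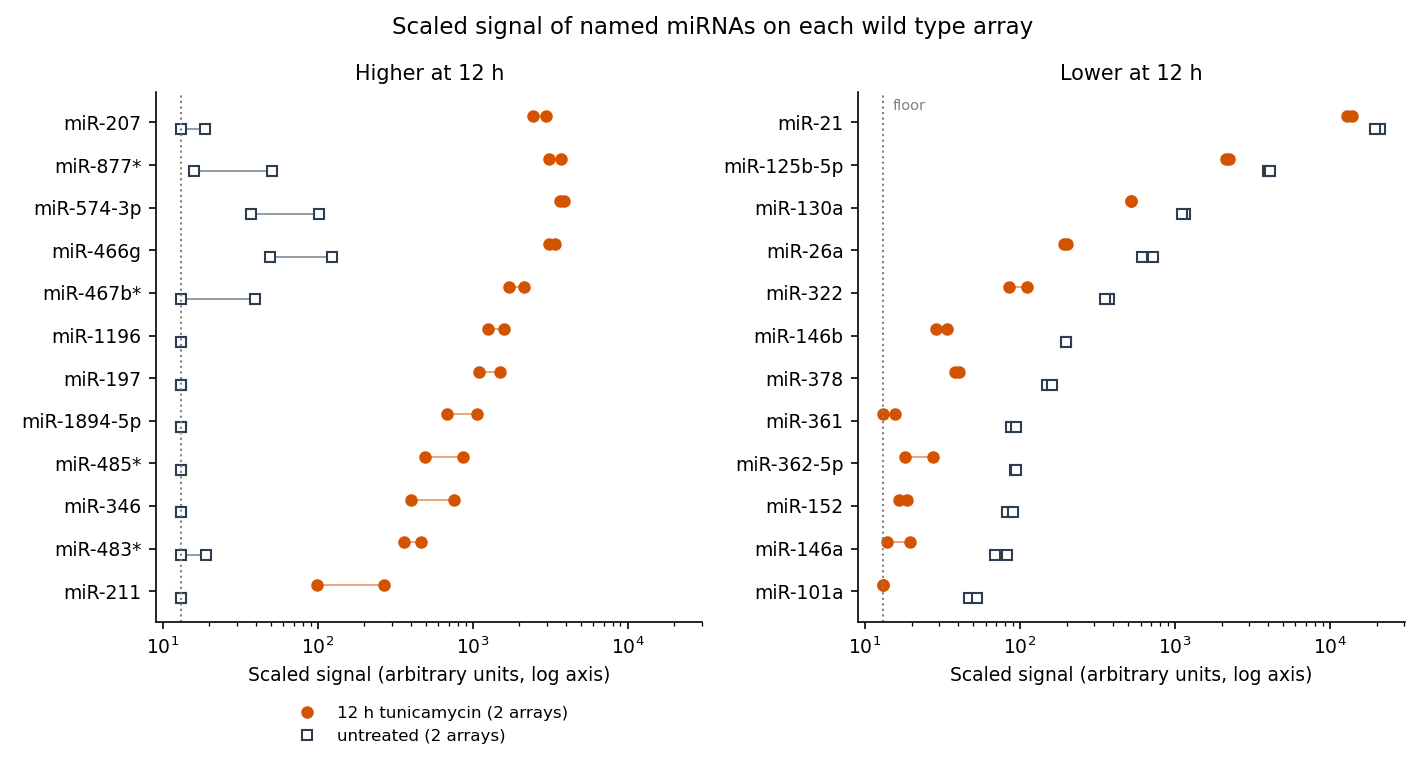
Scaled signal (log axis, arbitrary units) of 12 higher and 12 lower miRNAs on each of the 4 arrays; filled circles are the 2 arrays at 12 h of tunicamycin, open squares the 2 untreated arrays, and the dotted line the floor of 13.1, at which values below it are drawn. The 12 h arrays lie right of both untreated arrays in every row on the left and left of them in every row on the right.

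The deepest fall was that of miR-146b, and its seed partner miR-146a fell as well. Both miRNAs are induced by NF-kB and repress the signalling proteins TRAF6 and IRAK1. miR-146b read 33.7 and 28.7 at 12 h and 200 and 199 in untreated cells (-2.68, SE 0.41, adjusted p = 0.00203). miR-146a read 19.6 and 13.9 at 12 h, detected on neither array, and 69.2 and 82.3 in untreated cells, at least 3.86-fold lower. Its call was lost without 12 h replicate 2 or untreated replicate 2 (adjusted p up to 0.0620). Of the 6 tested miRNAs on the NF-kB list 4 were lower and none higher, against 25.4% lower over all tested miRNAs, with a median of -0.74 that turned to 0.35 with normexp. Over the miR-146 pair the median was -2.44, and it turned to 0.37 with normexp, under which the median of all tested miRNAs moved to 1.23. With the software's total gene signal the value of miR-146b itself turned to 0.22.

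Several other falls were tight between replicates. miR-361, from an intron of Chm, read 13.1 and 15.7 at 12 h and 88.0 and 93.7 in untreated cells, at least 4.66-fold lower (-2.66, SE 0.24, adjusted p = 0.000243). miR-152, a repressor of the DNA methyltransferase DNMT1, read 18.7 and 16.7 at 12 h and 82.8 and 89.9 in untreated cells, at least 4.43-fold lower (-2.29, SE 0.16). miR-378 read 37.9 and 40.7 at 12 h and 150 and 162 in untreated cells (-1.99, SE 0.28). None of these groups overlapped. miR-26a, which targets the histone methyltransferase EZH2, was brighter: it read 202 and 193 at 12 h and 615 and 721 in untreated cells (-1.76, SE 0.22, adjusted p = 0.000966). miR-101a, another repressor of EZH2, read 11.5 and 10.5 at 12 h and 46.8 and 52.5 in untreated cells, at least 2.54-fold lower. miR-26a and miR-26b both fell, and the median of the pair stayed negative under each scaling and background setting, at -0.27 with normexp, whereas the call of miR-26b (-0.93) was lost whichever array was left out. miR-101a and miR-101b fell with a median of -1.47, which turned to 1.05 with normexp. The call of miR-101b (-1.02) was also lost whichever array was left out.

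With normexp the values of miR-378 (0.24), miR-361 (0.61), miR-101a (0.97) and miR-152 (0.65) turned positive. Under that setting 16 of the 65 lower miRNAs stayed below 0, and 56 of the 65 stayed below that setting's median of all tested miRNAs. All 65 higher miRNAs stayed above 0 and 63 above the median.

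Of the 20 brightest miRNAs of untreated cells 7 were lower and 13 did not pass the threshold. Lower calls made up 25.4% of all tested miRNAs and 32.5% of those above the floor on all 4 arrays. miR-21, which ranked 1st in both groups and is a regulator of fibroblast growth and survival, read 13862 and 12988 at 12 h and 21032 and 19679 in untreated cells (-0.60, SE 0.20, adjusted p = 0.0429), and its call was lost whichever array was left out (limma adjusted p 0.0846 to 0.181). Its share of the tested signal was 14.8% and 12.6% at 12 h and 29.1% and 28.1% in untreated cells. miR-125b-5p, ranked 2nd in untreated cells, read 2243 and 2125 at 12 h and 3979 and 4081 in untreated cells (-0.88, SE 0.15, adjusted p = 0.00312). miR-130a read 521 and 518 at 12 h and 1162 and 1115 in untreated cells (-1.13, SE 0.17). The groups were apart for each of these. miR-22 (-0.18), let-7a (-0.34), let-7f (-0.44), let-7c (-0.09), miR-720 (0.19) and miR-709 (-0.22) did not pass the threshold. let-7b read 1841 and 1879 at 12 h and 1484 and 1534 in untreated cells, a difference of 0.30 (SE 0.12) with adjusted p = 0.0661.

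Fibroblast markers were present. Of 16 such miRNAs on the array 15 were tested, of which 10 were lower, 5 did not pass the threshold and none was higher, with a median of -0.69, which turned to 0.17 with normexp. Over all tested miRNAs 25.4% were lower, and among those above the floor on all 4 arrays, as 14 of these 15 were, 32.5% were lower with a median of -0.42. On the 12 h arrays 13 and 12 of them were detected, against 15 on each untreated array, and their summed signal was 21288 and 20115 at 12 h and 32153 and 30531 in untreated cells, most of it miR-21. miR-143 (-1.36) and miR-100 (-1.43) were among the 10 lower members. The call of miR-143 held in 3 and that of miR-100 in 1 of the 4 fits that left out an array, and both turned positive with normexp (0.79 and 0.44) and with the software's total gene signal (0.011 and 2.48). Markers of other cells gave lower sums. Of 7 epithelial, 2 endothelial and 1 liver miRNA on the array none was detected on any of the 4 arrays, and the epithelial sum was 0.620 and 8.31 at 12 h and 0.137 and 2.54 in untreated cells. Of 4 muscle miRNAs only miR-206, named here after its values were seen, was tested and higher, at 42.8 and 135 at 12 h against 6.98 and 2.49. Of 10 pluripotent-cell miRNAs 2 were tested, 1 higher and 1 lower, and miR-294 read 141 and 290 at 12 h against 7.41 and 7.07. Of 9 neural miRNAs 5 were tested, 2 lower and none higher, and the list summed to 123 and 113 at 12 h and 265 and 261 in untreated cells, with 2 detected on each 12 h array and 3 on each untreated array. The blood list, with 1 of 2 tested members lower, summed to 96.3 and 92.9 at 12 h and 175 and 194 in untreated cells. The part of these lists in the other results was not tested.

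The miRNAs tied to the unfolded protein response did not move one way. IRE1 is known in mouse embryonic fibroblasts to cleave the precursors of miR-17, miR-34a, miR-96 and miR-125b, which repress caspase-2. Of the 3 tested, 2 were lower (25.4% of all tested were), with a median of -0.60 that turned to 0.12 with normexp. Among miRNAs above the floor on all 4 arrays, as these 3 were, 32.5% were lower with a median of -0.42. miR-125b-5p is given above. miR-96 read 174 and 156 at 12 h and 245 and 252 in untreated cells (-0.60, SE 0.21, adjusted p = 0.0470), a call lost whichever array was left out. miR-34a did not pass the threshold, at 166 and 172 at 12 h and 166 and 160 in untreated cells (0.05, SE 0.31). miR-17 was on the array but not tested.

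Of 20 miRNAs on the array linked to PERK, ATF6, CHOP or XBP1 signalling, 13 were tested, 4 were higher and 7 lower, where 25.4% of all tested miRNAs lay on each side, with a median of -0.68 that turned to 0.62 with normexp. The higher ones were miR-346, miR-483*, miR-211 and miR-204. miR-346, which XBP1 is known to induce in human cells, read 401 and 763 at 12 h and -3.05 and -4.29 in untreated cells, at least 42.2-fold higher (5.40, SE 1.11, adjusted p = 0.00602). miR-211, from an intron of Trpm1 and known to be induced by PERK and to repress CHOP, read 98.4 and 268 at 12 h and 3.55 and 8.93 in untreated cells, at least 12.4-fold higher (3.63, SE 0.52, adjusted p = 0.00158). On the log2 scale the 12 h arrays of miR-211 differed from each other more than those of miR-207 did. miR-204, which carries the same seed UCCCUUU, was far dimmer, at 22.6 and 48.0 at 12 h against 0.900 and 2.88, and a single 12 h array detected it. miR-483*, from an intron of Igf2, read 462 and 362 at 12 h and 19.1 and 5.96 in untreated cells (4.69, SE 0.63).

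On the lower side stood the miR-106b~25 cluster, which lies in an intron of Mcm7 and which PERK signalling is known to repress in mouse cells. miR-93 read 72.9 and 80.4 at 12 h and 163 and 151 in untreated cells (-1.04, SE 0.11, adjusted p = 0.000504). miR-106b read 169 and 184 at 12 h and 312 and 300.6 in untreated cells (-0.80, SE 0.22), and miR-25 148 and 153 against 247 and 234 (-0.68, SE 0.15). Of all tested miRNAs 25.4% were lower. Among those above the floor on all 4 arrays, as these 3 were, 32.5% were lower with a median of -0.42. All 3 arms tested were lower, with a median of -0.80 that turned to 0.15 with normexp and to 1.26 with the scanner software's own total signal, and the call of miR-106b was lost whichever array was left out. miR-322, the mouse form of human miR-424 and a repressor of cell cycle genes, read 84.6 and 112 at 12 h and 377 and 356 in untreated cells (-1.91, SE 0.32, adjusted p = 0.00276). Its cluster mate miR-503 fell below detection, at -14.2 and -11.2 against 20.9 and 25.2. miR-199a-5p, known to repress GRP78 in human cells, read 167 and 159 at 12 h and 370 and 364 in untreated cells (-1.17, SE 0.29). Its call and that of miR-222 (-0.58), which lay near the floor, held in 1 of the 4 fits that left out an array, and miR-221 (-0.48) and miR-214 (-0.69) did not pass the threshold.

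**Figure D3:**
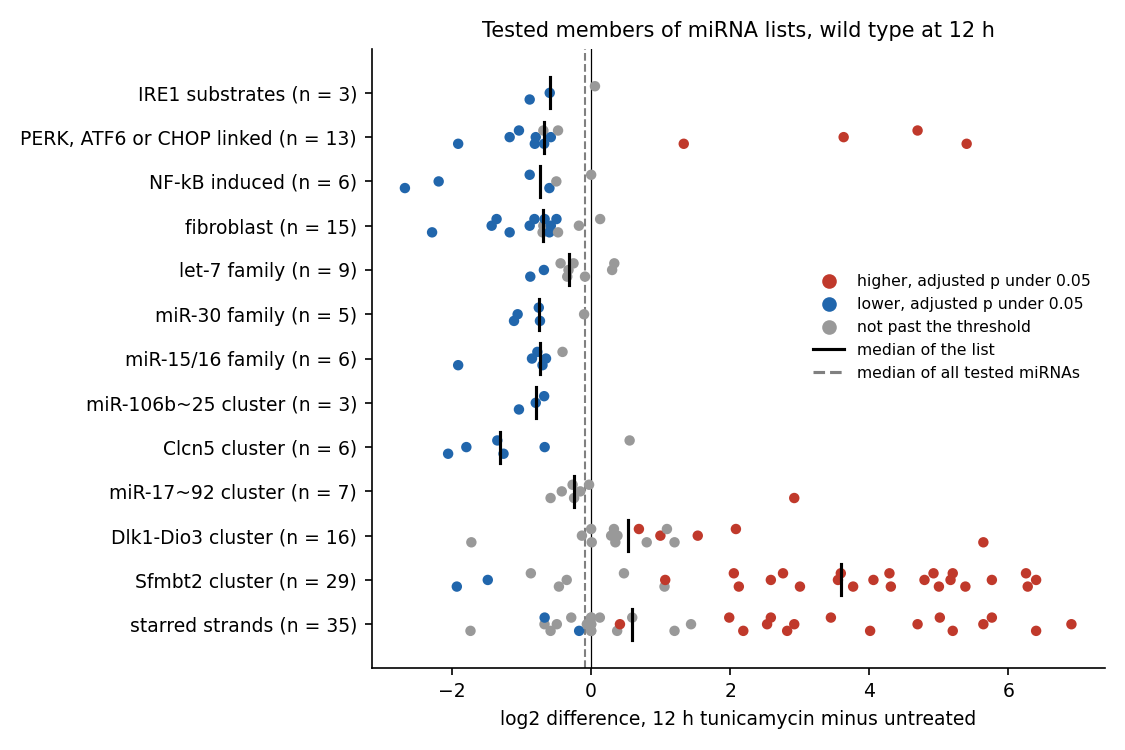
Each point is the log2 difference, 12 h tunicamycin minus untreated, of 1 tested member of a miRNA list in wild type cells; red is higher and blue lower past the threshold, the black bar is the median of the list and the dashed line the median of all 256 tested miRNAs (-0.09). The Sfmbt2 cluster has its median at 3.59, while the seed families have medians left of 0.

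Seed families of housekeeping miRNAs had few or no rises. In the let-7 family 2 of 9 tested members were lower and none higher (median -0.33, and -0.28 with normexp). let-7i read 722 and 744 at 12 h and 1365 and 1325 in untreated cells, and let-7g 333 and 300 against 505 and 508, with both calls lost whichever array was left out. In the miR-15/16 family, which restrains the cell cycle, 5 of 6 were lower (median -0.74, and -0.34 with normexp), miR-322 the most. miR-15a read 548 and 523 at 12 h and 963 and 870 in untreated cells, and miR-16 253 and 273 against 476 and 472. The groups were apart in each of these 4, but the calls of miR-15a and miR-16 were also lost whichever array was left out. In the miR-30 family 4 of 5 were lower (median -0.75), led in size by miR-30b (-1.11), with miR-30e at -1.06. The call of miR-30e was lost whichever array was left out, and those of miR-30b and miR-30c without some arrays, whereas that of miR-30d held. The family's median turned to 0.48 with normexp and to 0.82 with the software's total signal. miR-103 and miR-107 share a seed, sit in introns of pantothenate kinase genes and repress Dicer. miR-103 read 76.6 and 74.95 at 12 h and 191 and 188 in untreated cells, and miR-107 81.5 and 82.2 against 166 and 169. Their median of -1.18 turned to 0.22 with normexp. Against these stand 25.4% lower calls over all tested miRNAs. All tested members of these families were above the floor on all 4 arrays. Among miRNAs above it 12.6% were higher and 32.5% lower, with a median of -0.42, and the let-7 median lay nearer 0 than that. The members of a family also share a seed and in part their probes' sequence.

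Among genomic clusters the Clcn5 intron cluster on the X chromosome had 5 of 6 tested lower, against 25.4% over all tested miRNAs. Its median was -1.31 (-2.06 to 0.55), which turned to 1.08 with normexp. miR-362-5p read 27.5 and 18.2 at 12 h and 92.8 and 93.8 in untreated cells (-2.06, SE 0.33), and miR-362-3p, the other arm of that hairpin, 17.7 and 19.97 against 66.0 and 64.6, at least 3.31-fold lower. miR-532-5p was not detected at 12 h, at 2.77 and 0.708 against 31.7 and 31.0. The oncogenic miR-17~92 cluster had 1 of 7 higher and none lower (median -0.25, and 0.25 with normexp), with miR-19a at -0.27. The imprinted Dlk1-Dio3 region, with 69 miRNAs on the array but 16 tested, had 5 higher and none lower (median 0.53). Of all tested miRNAs 25.4% were called in each direction. Of 5 tested Hox cluster miRNAs 2 were higher, of which miR-615-3p read 73.7 and 200 at 12 h against -1.24 and 5.08.

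The miRNAs of the rodent Sfmbt2 intron cluster made up 22 of the 65 higher calls. Of 29 tested members 22 were higher and 2 lower, where 25.4% of all tested miRNAs lay on each side. Among the 20 above the floor on all 4 arrays 13 were higher and 2 lower, with a median of 2.67. Over all miRNAs above the floor on these arrays 12.6% were higher and 32.5% lower. The median of the 29 was 3.59, and 1.99 to 3.64 under the settings that changed scaling, background or summary. Relative to the median of all tested miRNAs it was 3.68 here, and 0.76 with normexp. Their summed signal was 21894 and 27394 at 12 h and 3162 and 2672 in untreated cells. Many of these miRNAs are near-identical to each other, so that their probes cannot be taken as separate measurements. miR-466g read 3104 and 3414 at 12 h and 123 and 49.5 in untreated cells, and miR-466f-3p 3089 and 3439 against 155 and 52.9. On untreated replicate 1 the pair differed the most. miR-466i, miR-467f and miR-467a* had rises of 4.79, 4.29 and 2.58, and none of these 5 calls held in any of the 4 fits that left out an array, although the groups did not overlap. miR-669e, undetected in untreated cells, read 320 and 494 at 12 h against 8.46 and 7.24, at least 30.4-fold higher, and miR-297a* read 455 and 873 against 15.6 and 18.8. The rise of miR-669h-3p was at least 77.7-fold, and its call was lost without replicate 2 of either group (adjusted p up to 0.0519).

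Arms of a hairpin did not always move together. Of 37 hairpins with both arms tested, 5 had arms past the threshold in opposite directions, in each case the starred arm higher. The count was 0 or 1 in the 4 fits that left out an array. miR-467b* read 1718 and 2133 at 12 h and 39.3 and 9.58 in untreated cells, while miR-467b read 112 and 82.4 at 12 h and 275 and 263 in untreated cells. The call of miR-467b* held in 1 of the 4 fits that left out an array, and that of miR-467b in 3. miR-15a* read 92.2 and 221 at 12 h and -2.89 and 1.91 in untreated cells, against the fall of miR-15a given above. miR-16* and let-7g* (2.19 and 2.82) rose likewise, opposite to miR-16 and let-7g (-0.85 and -0.68), and so did miR-467a* opposite to miR-467a (-1.93).
Over the 26 hairpins with a starred arm, the starred arm had the more positive difference in 24, and the median of starred minus other arm was 2.25. In 5 of these the starred arm was at the floor on all 4 arrays, so that its difference was fixed at 0. Over the other 21 hairpins the starred arm was the more positive in 20, with a median gap of 2.97. Some of these starred arms, among them let-7g*, miR-15a*, miR-16* and miR-18a*, were at the floor on both untreated arrays and could not fall. They were tested because treated arrays detected them, while their other arms were free to fall. The lead of the starred arms, and the counts of higher ones that follow, were thus in part fixed by the floor and the filter, and are no test. Over all 26 hairpins, 13 starred arms were higher and 1 lower, and of the other arms none was higher and 11 lower. Of all 115 starred miRNAs on the array 35 were tested, 16 higher and 2 lower, where 25.4% of all tested miRNAs lay on each side. The median of the 35 was 0.59, and it came to 0.01 with the percentile over all mouse miRNAs and to 0 with quantile normalization.

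**Figure D4:**
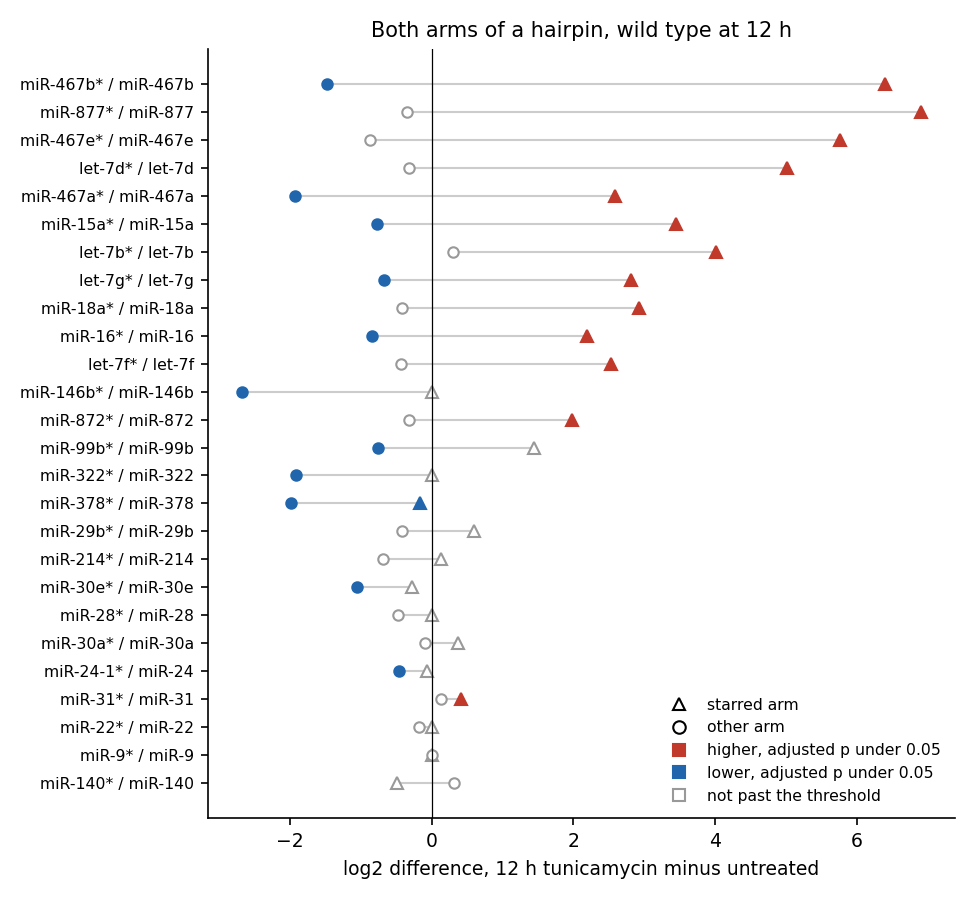
Log2 difference, 12 h tunicamycin minus untreated, of the starred arm (triangles) and the other arm (circles) of 26 hairpins, ordered by the gap between them; filled red is higher and filled blue lower past the threshold, and open is not past it. The starred arm lies to the right in 24 of the 26 rows.

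The higher miRNAs also differed in base content, as the first sequences printed above show. A mature sequence was matched for 187 of the 256 tested miRNAs, 54 by name and 133 by arm. Cytosine made up a median 36.4% of the bases in the 40 higher miRNAs with a sequence, 20.4% in the 48 lower ones and 21.7% in the 99 that were not past the threshold. More than 30% C was found in 24 of the 40 higher (60%), in 9 of the 48 lower (18.8%) and in 14 of the 99 others (14.1%), against 29.7% of all 1674 mature mouse miRNAs in the table. The run CCC was present in 40% of the higher, 18.8% of the lower and 19.2% of the others, and in 23.4% of the whole table. G plus C together differed less, at 47.8%, 45.5% and 45.5%. Without starred arms the medians of C were 34.1%, 20.4% and 21.7%, and among miRNAs above the floor on all 4 arrays 33.4% (8 miRNAs), 19.0% and 18.2%.
miR-1894-5p had 59.1% C, miR-877* 54.5%, miR-207 52.2% and miR-574-3p 50%. The other 16 of the 40 were at or below 30% C, among them miR-483*, with 4.55% C and 50% G. The content of C was chosen after the sequences were seen, and it is a description with no test.

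**Figure D5:**
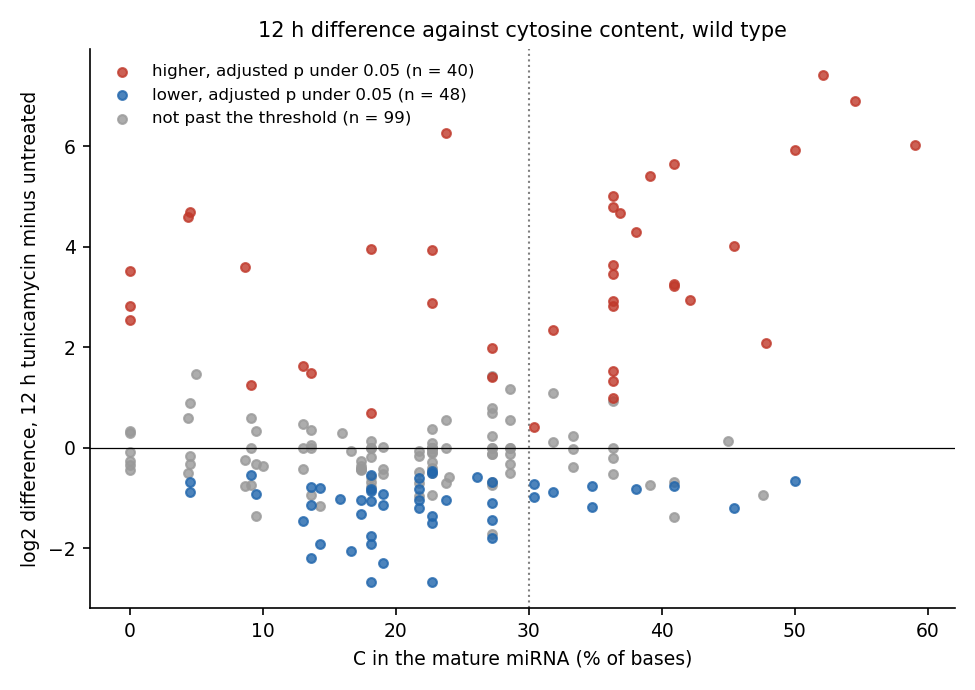
Percentage of C in the mature miRNA (horizontal axis) against the log2 difference, 12 h tunicamycin minus untreated (vertical axis), for 187 tested miRNAs with a matched sequence; the dotted line marks 30% C. Of the higher miRNAs (red, 40) 24 lie right of the line, against 9 of the lower ones (blue, 48) and 14 of the others (grey, 99).

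The design asks whether the 12 h response depends on XBP1. The same comparison in XBP1KO cells, which has its own untreated arrays, gives values to set beside it. As in wild type, its untreated arrays were on slide 1 and its 12 h arrays on slide 2. The effects of slide and of treatment cannot be told apart in knockout cells either, and calls shared by the genotypes do not separate them. In knockout cells 126 of 256 miRNAs passed the threshold (49.2%). Of the 65 higher miRNAs of wild type cells 57 were called higher in knockout cells, and of the 65 lower ones 49 were called lower. The difference between the responses passed the threshold for 15 of 256 miRNAs (5.86%), among them 2 of the higher and 9 of the lower. miR-207 read 2335 and 1715 in knockout cells at 12 h and 19.1 and 11.2 in untreated knockout cells, which left a difference of responses of 0.44 (SE 2.09). miR-346 read 609 and 533 at 12 h and 2.77 and -1.46 in untreated knockout cells, and its difference of 5.40 in wild type cells, set beside 5.44 in knockout cells, left -0.04 (SE 1.57) between the responses.
miR-196b was past the threshold in opposite directions in the genotypes. In wild type cells both untreated arrays were set to the floor, so that miR-196b could not fall there. A single wild type 12 h array detected miR-196b, and in unscaled signal the wild type groups overlapped. It read 23.4 and 41.6 at 12 h against 3.42 and 5.99 in untreated wild type cells, but 115 and 91.5 at 12 h against 278 and 280 in knockout cells (difference of responses 2.70, SE 0.55, adjusted p = 0.0337), and its wild type call was lost in 3 of the 4 fits that left out an array. miR-146b, at 29.7 and 17.4 against 407 and 422 in knockout cells, had a difference of responses of 1.51 (SE 0.58, adjusted p = 0.294). At 24 h in wild type cells, set against the same untreated arrays, miR-207 read 75.5 and 457, miR-877* 210 and 482, and miR-346 -9.11 and 98.0, all under their 12 h values. At 24 h miR-146b read 29.5 and 6.84 and miR-26a 232 and 185, below both untreated arrays as at 12 h.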

How the data were processed

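The data were 1-colour Agilent miRNA arrays, 1 per sample. Per the file headers and the submitters' processing notes, the scanner software was Agilent Feature Extraction 10.7.1.1. The deposited processed intensity of a spot is background-subtracted and detrended and was not normalized between arrays, per the file headers. The log2 values in the authors' deposited series table matched the total gene signal that this software writes (largest difference 1.15e-06).

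Control and outlier spots were left out, spots averaged per probe and probes summed per miRNA (13000 spots, 1857 probes, 611 mouse and 39 viral miRNAs; 0 saturated spots). Arrays were scaled so that the 75th percentile of 95 miRNAs, those detected everywhere, was equal. Signals below the 5th percentile of detected ones were set to it. A miRNA was tested where the software detected it on both arrays of at least 1 of the 6 groups, which held for 256. limma 3.58.1 in R 4.3.3 fitted 1 mean per group over 12 arrays (eBayes with trend, 6 residual degrees of freedom, prior 0.981), with Benjamini-Hochberg adjustment over the 256. The test was tried on simulated data first. SE is the fit's standard error with n = 2 arrays a group, and values at the floor have no spread, so their SE is too small. The number of arrays limits the precision. "At least N-fold" sets the brighter group's mean against, per array, the higher of the floor, the lowest detected signal and the miRNA's own.

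Members, lists and the rule for named miRNAs were chosen with earlier results of these data known. The rule took the largest rises and falls, the members of the unfolded-protein-response lists, the 15 brightest untreated miRNAs, up to 4 members per other list and hairpins with opposite arms. The base runs searched in the mature RNA strand were CCC, GGG and GUGU. The fit did not pair arrays by replicate number. The correlation of deviations of same-numbered arrays was 0.0774 between the groups compared. Over all pairs of groups it ran from -0.547 (untreated wild type with knockout at 24 h) to 0.867 (untreated wild type with untreated knockout). Between the 12 h groups of both genotypes it was 0.415. Replicates on a slide were scanned separately, and the main fit treated all arrays as independent. Where the labels call replicates independent experiments, nothing says that they came from separate animals. Plots were drawn with matplotlib 3.10.9 in Python 3.11.15. Alternatives were other scalings, background corrections, summaries, floors, filters, sample sets and blocks.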

Additional observations from a re-analysis of the deposited data

Results flagged for a closer look

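For 4 named miRNAs the 12 h response differed between wild type and knockout by the test of the difference itself. In log2 units, wild type minus knockout, it was 2.70 for miR-196b (limma adjusted p = 0.0337), 1.23 for miR-503 (adjusted p = 0.00693), -1.21 for miR-532-5p (adjusted p = 0.0116) and -1.48 for miR-155 (adjusted p = 0.0337). miR-503 was undetected at 12 h in both genotypes, at -14.2 and -11.2 in wild type cells against -6.55 and -1.21 in knockout cells. Untreated wild type cells read 20.9 and 25.2, untreated knockout cells 48.3 and 59.7. miR-532-5p was undetected at 12 h in both too, at 2.77 and 0.708 in wild type cells against 0.175 and 3.62 in knockout cells, with 31.7 and 31.0 in untreated wild type and 13.2 and 13.9 in untreated knockout. For these 2 miRNAs all 12 h values were set to the floor of 13.1, so that the difference of responses is the gap between the untreated genotypes alone, and in knockout miR-532-5p had hardly any room to fall. miR-155 read 72.6 and 66.9 at 12 h against 96.6 and 101 in untreated wild type cells, and 31.9 and 23.8 at 12 h against 14.1 and 13.9 in untreated knockout cells.

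Of 39 viral miRNAs on the array, which these cells are not described as carrying, 4 were detected on at least 1 of the 12 arrays, and the probes of 3 of them gave signal at 12 h above both untreated arrays. The probes of mghv-miR-M1-2 averaged 689 at 12 h, with 875 and 503.1 against 102 and 24.6 in untreated cells, and were called detected on all 12 arrays. Those of mghv-miR-M1-6 averaged 78.5 (53.3 and 104 against 6.51 and 8.92) and those of mcmv-miR-m59-2 averaged 15.8 (3.21 and 28.4 against -3.23 and -2.10). Of the arrays compared, only 12 h replicate 2 detected mghv-miR-M1-6 or mcmv-miR-m59-2, and the 3.21 lay under the floor of 13.1. The probes of mcmv-miR-M23-1-5p went the other way, at -7.72 and -6.43 at 12 h, undetected, against 11.6 and 12.6 in untreated cells, detected on both. Their part in the rises of mouse miRNAs was not tested.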

How the results depend on the processing

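The 130 calls became 58 (20 higher, 38 lower) over miRNAs detected on all 4 arrays and 66 (19 higher, 47 lower) over those above the floor on all 4, a setting chosen after seeing the data, because fewer miRNAs were tested. Without 1 array they ran from 85 to 110, with 48 to 67 higher and 37 to 46 lower. Quantile normalization gave 105 lower calls against 55 higher, and the percentile over all mouse miRNAs 85 against 59, with medians of all tested miRNAs of -0.72 and -0.55. The software's total gene signal, which the deposited table holds, gave 111 calls, 61 higher and 50 lower, sharing 47 and 32 with the 65 of each direction, and the 4 wild type arrays alone 145 (62 higher, 83 lower). Normexp, run on the spots' median signal as the files hold no mean signal, gave 181 higher and 11 lower around a median of 1.23. It also added an offset of 50 to each spot before scaling. Whether the input, the background method or the offset caused this was not tested. The replicate number as a block (replicate block) gave 130 calls, 65 higher and 65 lower, of which 64 and 62 were shared, and 3 of the 81 miRNAs followed lost their call under it. The scan as a random block gave 131. With normexp the signs of these turned: miR-378 (0.24), miR-361 (0.61), miR-362-5p (1.03), miR-152 (0.65), miR-467a (0.50), miR-101a (0.97), miR-101b (1.12), miR-146a (0.76), miR-362-3p (0.85), miR-26b (0.41), miR-100 (0.44), miR-143 (0.79), miR-103 (0.15), miR-107 (0.30), miR-93 (0.34), miR-25 (0.15), miR-96 (0.12), miR-222 (1.34), miR-503 (1.20), miR-532-5p (1.14), miR-30b (0.95), miR-30c (0.16), miR-30d (0.47), miR-30e (0.48) and miR-155 (0.72). With the software's total gene signal, and with the deposited table that equals it, they turned for miR-146b (0.22), miR-100 (2.48), miR-143 (0.011), miR-93 (2.03), miR-25 (1.26), miR-30b (1.39), miR-30c (0.86), miR-30e (0.043) and miR-155 (1.24). No sign of a called value among the 81 miRNAs followed turned under the other settings. Of these, 21 to 32 lost their call without 1 array, the most without untreated replicate 2. Dim miRNAs are limited by the signal over background: the lowest detected scaled signal was 19.5 and 19.4 on the 12 h arrays and 7.21 and 4.65 on the untreated arrays.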
